A study of Mus musculus with 15 samples.

Results

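The 35 genes described here encode nuclear receptors other than NR5A1 itself, its partners and the classical steroid receptors, and their transcripts were measured by RNA-seq of the whole mouse pituitary gland. They were taken from the count table by gene symbol: each of the 35 had 1 row among the 55523 rows of the table. The rule looks at symbols and at no measured value, though the list was drawn up with earlier results of these data known, and the 35 belong to a superfamily of 49 genes for which a row was found.

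The study deleted the pituitary enhancer (PE) of Nr5a1, which lies in an intron of the gene, by CRISPR/Cas9 editing of fertilized mouse eggs. Males gave 4 PE+/- and 4 PE-/- libraries, and females gave 4 PE+/- and 3 PE-/- libraries. PE+/- mice, which lack the enhancer on 1 chromosome, served as controls for PE-/- mice, which lack it on both, so the controls carried the deletion too. The age of the mice, the number of founders and the number of glands behind a library are not given in the sources used here for these libraries. The deletion was not restricted to pituitary cells.

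Nuclear receptors are transcription factors, many of which are switched by a small lipid-soluble ligand such as a thyroid hormone, a retinoid, an oxysterol or vitamin D. NR5A1 binds DNA as a monomer at extended copies of the hexamer AGGTCA, and its closest relative, NR5A2, recognises the same element. In the pituitary NR5A1 is found in gonadotropes, the cells that make luteinizing and follicle-stimulating hormone. The question put to these data was whether the transcript of any related receptor was higher in glands that had lost Nr5a1.

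Library totals ran from 12982794 to 30238443 estimated counts, taken here as about 4 counts for each sequenced fragment, and values are given as CPM, counts scaled to the size of their library after TMM normalization. The summed CPM of 4 somatotrope markers was 60256 to 188130.0 in the 15 libraries, so the defining transcripts of the labelled tissue were present, while 5 posterior lobe markers summed to 5.43 to 171 CPM. The 6 gonadotrope markers together were 9246 to 16849 CPM in PE+/- males, beside 1382 to 6829 in PE-/- males. They were 5883 to 8763 CPM in PE+/- females, beside 2287 to 6965 in PE-/- females, so that the female sums overlapped. A sum does not speak for each marker. In PE-/- females 5 of the 6 were lower and 1 was higher, with a median log2 fold change of -2.91. In PE-/- males 6 of the 6 were lower, with a median of -4.03. An adjusted p under 0.05 by edgeR was seen for 3 in females and 2 in males, against 1.05% and 0.132% of all genes tested. Nr5a1 itself had 34.8 to 80.2 CPM in the PE+/- males and 33.7 to 45.4 in the PE+/- females, against 0 to 0.740 in the PE-/- males and 0.618 to 0.897 in the PE-/- females.

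Promoter sequences were examined first, because the element that NR5A1 and NR5A2 share can be looked for in them. Windows of 250 bases before each annotated start were taken from RefSeq (GRCm38.p6), which held 54 windows for 34 of the 35 genes. The pattern CAAGGNCA, a loose form of the element with any base at N, was searched on both strands. It was in windows of Nr1d1 and Rara. These were 2 of the 54 windows (3.70%), against 5.53% of all 32851 windows. In neither match was N a T, so neither held the hexamer AGGTCA. The hexamer AGGTCA, which lies within the pattern when N is T, was in 10 of the 54 windows (18.5%) against 14.0% of all windows. Of the 10, 1 belonged to Nr5a2. Below are the windows of the closest relative of Nr5a1, of both genes that held the pattern and of Rorb, the receptor that passed a test. They are written 5′ to 3′ on the strand of the gene. Capitals mark the hexamer in Nr5a2 and the pattern, read on the opposite strand, in Nr1d1 and Rara.
Nr5a2, minus strand, chr1:136960449-136960698: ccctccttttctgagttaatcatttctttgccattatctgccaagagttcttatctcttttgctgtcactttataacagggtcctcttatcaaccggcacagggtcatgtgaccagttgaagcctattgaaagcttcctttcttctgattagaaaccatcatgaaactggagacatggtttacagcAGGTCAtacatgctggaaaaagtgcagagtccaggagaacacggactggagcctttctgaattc
Nr1d1, minus strand, chr11:98775378-98775627: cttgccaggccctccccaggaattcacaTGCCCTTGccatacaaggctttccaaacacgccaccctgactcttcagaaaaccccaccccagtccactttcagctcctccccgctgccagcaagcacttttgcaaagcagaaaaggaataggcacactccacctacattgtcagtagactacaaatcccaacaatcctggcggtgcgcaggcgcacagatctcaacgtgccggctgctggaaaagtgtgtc
Rara, plus strand, chr11:98964622-98964871: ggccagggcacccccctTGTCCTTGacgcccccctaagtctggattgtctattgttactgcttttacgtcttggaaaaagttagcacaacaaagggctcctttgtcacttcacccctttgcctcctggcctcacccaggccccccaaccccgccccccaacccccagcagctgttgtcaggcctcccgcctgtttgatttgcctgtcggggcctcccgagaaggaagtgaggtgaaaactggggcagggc
Rorb, minus strand, chr19:19111197-19111446: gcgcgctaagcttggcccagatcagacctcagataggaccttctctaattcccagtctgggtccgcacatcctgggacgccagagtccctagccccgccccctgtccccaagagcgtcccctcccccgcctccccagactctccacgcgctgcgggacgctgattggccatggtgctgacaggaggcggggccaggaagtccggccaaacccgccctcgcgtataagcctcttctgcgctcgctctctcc
The hexamer of Nr5a2 began 64 bases before the start, and the pattern matches of Nr1d1 and Rara began 222 and 233 bases before theirs. Rara has 4 windows in the table, and Nr5a2 and Rorb have 2 each, of which the second of Nr5a2 held neither the pattern nor the hexamer. Neither window of Rorb held the pattern, the hexamer, an E-box (CACGTG) or a cyclic AMP response element (TGACGTCA), which says only that these letters were not there.

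Levels can be compared between genes per length of annotated exons. On that scale 7 of the 35 had a mean over all libraries of at least 10 CPM per kb, 17 lay between 1 and 10, and 11 lay under 1. Nr1d1 (43.9 ± 18.0 CPM per kb, SD, n = 15), a heme-binding repressor of the circadian clock, Thrb (42.6 ± 32.6), a thyroid hormone receptor known in thyrotropes, and Rxrg (41.2 ± 9.46), a retinoid X receptor, had the highest means over the 15 libraries. The SDs of these 3 were wide enough that their order could not be told, and the order was not that of each group: Thrb had 73.6 CPM per kb in PE+/- females and 23.8 in PE-/- females, where Nr4a2 had 50.4. Nr4a2 (30 ± 22.4), an orphan receptor of the immediate early class, Nr1d2 (29.9 ± 10.8), the paralogue of Nr1d1, Nr1h2 (18.1 ± 2.45), an oxysterol receptor, and Rorb (14.1 ± 3.21), an orphan receptor of the ROR family, followed. Nr1i2, Nr2e1 and Hnf4a, known from liver, gut and brain, had at most 5, 10 and 5 counts in any library, under the floor of 12 counts (3 fragments), at or below which a gene was taken as not detected.

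**Figure D1:**
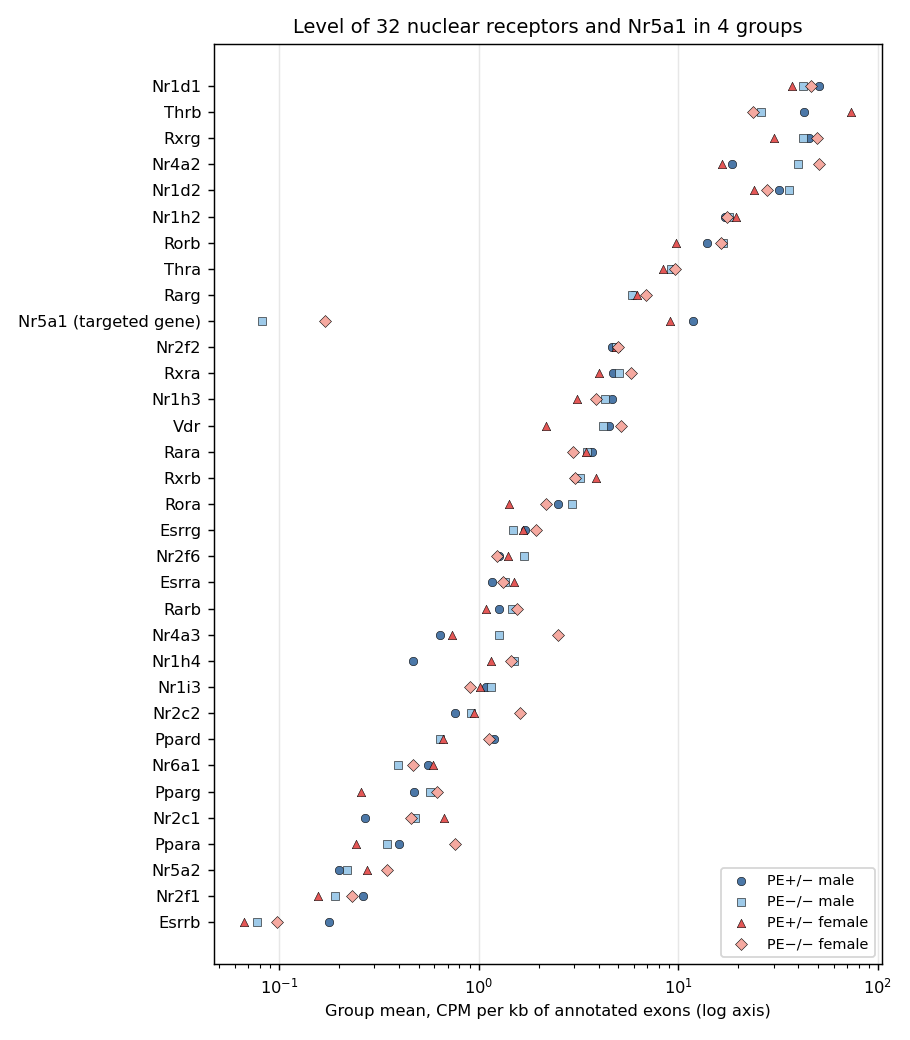
Group means in CPM per kb of annotated exons (log axis) of the 32 receptors above the floor and of Nr5a1, ordered by their mean over 15 libraries, with 1 symbol for each group. Nr5a1 lies at 11.8 and 9.14 CPM per kb in PE+/- males and females and at 0.0818 and 0.171 in the PE-/- groups, while the 4 symbols of Nr5a2 lie between 0.20 and 0.348.

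Nr5a2 (chromosome 1, 136842571 to 136960448, minus strand, mm10), the other member of the NR5A subfamily, was scarce in every group. Replicates 1 to 4 had 0.846, 0.742, 1.71 and 1.42 CPM in PE+/- males, against 1.11, 1.76, 1.69 and 0.626 in PE-/- males. They had 0.782, 2.09, 2.18 and 1.46 CPM in PE+/- females, and the 3 PE-/- females had 2.96, 1.61 and 1.58. The groups overlapped in both sexes, and the counts ran from 10 to 52 in the 15 libraries. Replicate 1 of the PE+/- males, replicate 4 of the PE-/- males and replicate 1 of the PE+/- females had 12, 11 and 10 counts, no more than the floor, and so count as not detected. The log2 fold change was 0.14 ± 0.45 in males (SE, 95% interval -0.88 to 1.17, adjusted p = 0.988) and 0.30 ± 0.45 in females (-0.74 to 1.35, adjusted p = 0.818). With both sexes in 1 fit, adjusted for sex, it was 0.22 ± 0.31 (-0.44 to 0.89, adjusted p = 0.863 by edgeR's quasi-likelihood F test), so the upper bound was a 1.85-fold increase. Per length, Nr5a2 in PE+/- glands stood at 1.69% of Nr5a1 in males and 3.02% in females. In PE-/- glands it stood at 1.86% of the level that Nr5a1 had in the PE+/- males and 3.80% of that in the PE+/- females. Whole glands were measured, so a change in gonadotropes alone could not be seen apart from the level in the other cells.

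Of the receptors, none passed an adjusted p of 0.05 in either sex alone. In males 0 of 32 tested members passed, where 0.132% of all 17392 genes tested did, and 2 of 32 (Nr1h4 and Nr2c1) had an unadjusted p under 0.05, where 6.14% of all genes did. In females 0 of 31 passed, against 1.05% of 18085 genes, and 6 of 31 had an unadjusted p under 0.05, against 16.1%. These 6 were Rorb, Rxrg, Vdr, Ppara, Nr4a3 and Rxra, and all 6 were higher in PE-/- females, where 7.75% of all genes were higher at that p. In the fit adjusted for sex 1 of 32 passed, Rorb, against 1.17% of 19286 genes in either direction and 0.71% with a higher value, and 5 of 32 had an unadjusted p under 0.05, against 12.7%. DESeq2, as an alternative, passed 0 members in males, against 1.18% of all genes, and 4 of 31 in females (Ppara, Rorb, Rxrg and Vdr), against 7.91%. By CPM, the PE-/- and PE+/- groups did not overlap for 1 of 32 receptors in males, Nr1h4, where 4.56% of all genes did not. In females 6 receptors lay wholly higher and 1, Nr1h2, wholly lower, where 18.6% of all genes did not overlap. Esrrb was too low to be tested in females. The median log2 fold change of the members was 0.08 in males and 0.31 in females, beside 0.003 and 0.002 over all genes tested. P-values measure the spread between these samples, and the labels do not say which mice were littermates. PE-/- and PE+/- libraries enter both the comparison within a sex and the fit over both sexes, so these are not independent. The limits also differ between genes: in the adjusted fit, 21 of the 32 had an upper 95% bound under a 2-fold increase and 11 had a bound above it, namely Nr2f6, Vdr, Rora, Nr1i3, Esrrb, Ppara, Nr2c2, Pparg, Nr4a3, Nr4a2 and Nr1h4.

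**Figure D2:**
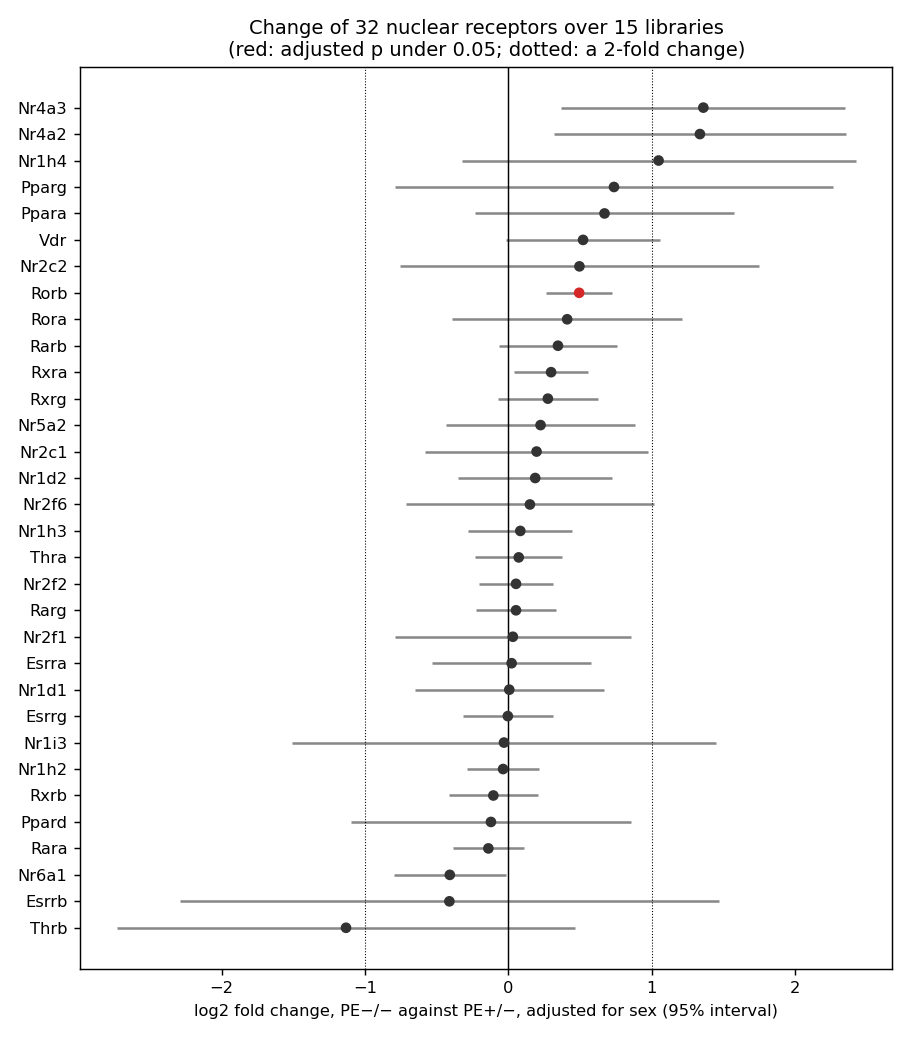
Log2 fold change of PE-/- against PE+/- with its 95% interval for the 32 tested receptors over 15 libraries, adjusted for sex, with a dotted line at a 2-fold change either way. Rorb (0.49, interval 0.27 to 0.72) is the only red point, and the intervals of Nr4a2, Nr4a3 and Rxra also lie above 0 without an adjusted p under 0.05.

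Rorb (chromosome 19, 18930605 to 19111196, minus strand, mm10), an orphan receptor known for the retina and for the brain's clock, rose in PE-/- glands over both sexes. The PE+/- males had 171, 149, 142 and 153 CPM and the PE-/- males had 199, 207, 188 and 149.8, where the last library lay within the control range. The PE+/- females had 122, 111, 94.0 and 105 CPM and the PE-/- females had 174, 179.9 and 190.4, so that the female groups did not overlap. The adjusted change was 0.49 ± 0.11 on the log2 scale (95% interval 0.27 to 0.72, 1.41-fold, adjusted p = 0.0399). It was 0.74 ± 0.13 in females (adjusted p = 0.0568) and 0.27 ± 0.13 in males (adjusted p = 0.845), and a difference between the sexes was not shown (interaction 0.47 ± 0.18, adjusted p = 0.377). The call was lost in 12 of 15 fits that left out 1 library, with adjusted p from 0.0121 to 0.144. PE+/- females were at 70.4% of PE+/- males (-0.50 ± 0.13, adjusted p = 0.143) and the groups did not overlap, as for 9.75% of all genes. PE-/- females and males did not differ beyond their spread (-0.03 ± 0.13, adjusted p = 0.997). A larger share of some cell type and more RNA per cell cannot be told apart in whole glands. Beside Rorb, the 4 melanotrope markers and the 5 stem or folliculostellate markers were all higher in the adjusted fit, where 51.3% of all genes were. Of these markers, 3 of 4 and 3 of 5 had an unadjusted p under 0.05, against 12.7% of all genes, and 0 passed the adjusted test. The 4 corticotrope markers and 8 immediate early genes were also all higher. Of them, 0 and 2 had an unadjusted p under 0.05, and 0 passed the adjusted test. The summed stem markers were 250.2 to 415 CPM in PE+/- males, beside 384 to 528 in PE-/- males, and 232 to 581 in PE+/- females and 451 to 558 in PE-/- females. Other lists moved the other way in the same fit: 5 of 5 endothelial and 3 of 3 erythroid markers were lower. Of them, 3 and 2 had an unadjusted p under 0.05, again beside 12.7% of all genes, and 0 passed the adjusted test. The summed endothelial markers were 77.5 to 354 CPM in PE+/- males, beside 81.1 to 95.3 in PE-/- males, and 102 to 155 in PE+/- females, beside 93.7 to 116 in PE-/- females. The part of these lists in the change of Rorb was not tested.

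**Figure D3:**
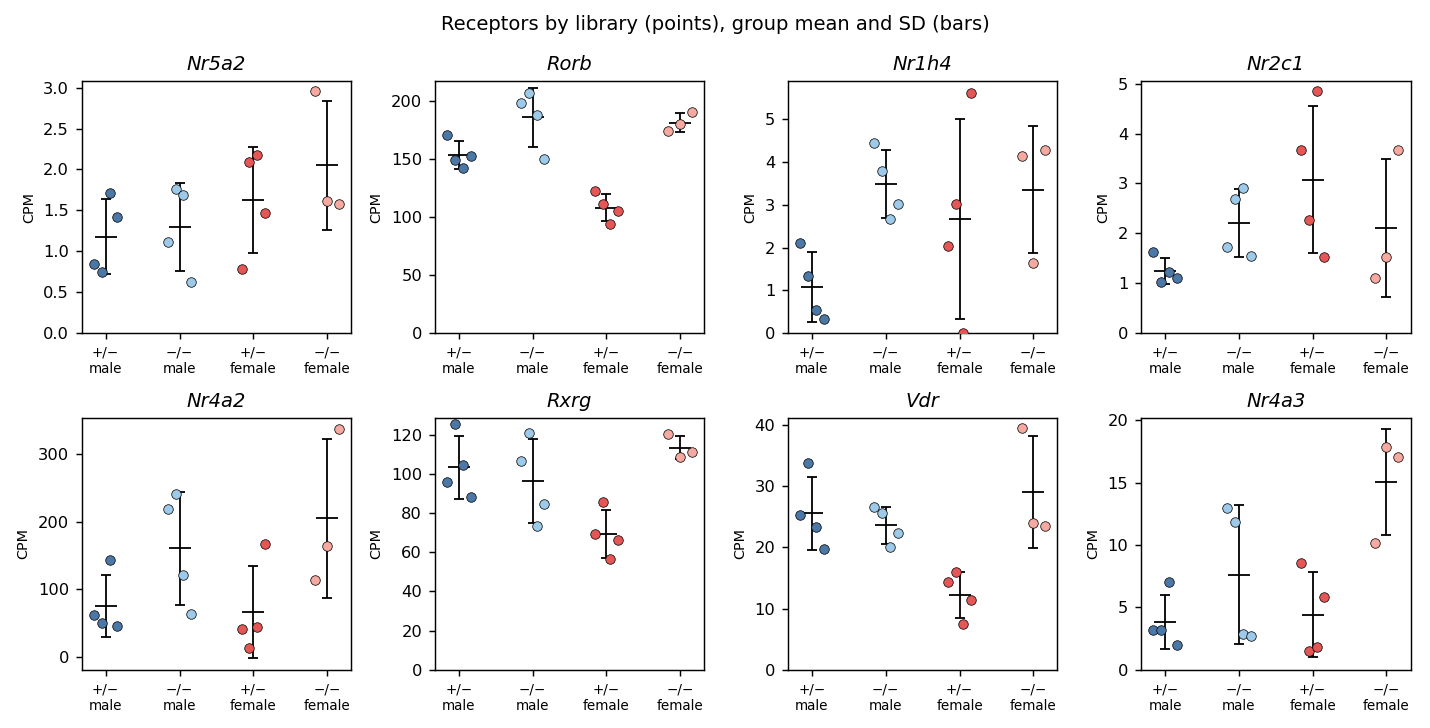
CPM of 8 receptors in every library (points) with the group mean and SD (bars). In females the PE-/- points of Rorb, Rxrg, Vdr and Nr4a3 all lie above the PE+/- points. In males only Nr1h4 separates the groups, and some of its PE+/- points come from counts under the floor.

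Rxrg, Rxra and Vdr belong together, since retinoid X receptors are the partner with which the vitamin D receptor binds DNA. Rxrg (chromosome 1, 167598384 to 167639623, plus strand) had 95.7, 125, 105 and 88.2 CPM in PE+/- males, against 107, 121, 73.5 and 84.5 in PE-/- males. It had 69.2, 85.8, 56.5 and 66.3 CPM in PE+/- females, against 120.3, 109 and 111 in PE-/- females. The male groups overlapped and the female groups did not. The change was 0.70 ± 0.16 in females (adjusted p = 0.0963), -0.10 ± 0.18 in males (adjusted p = 0.988) and 0.28 ± 0.16 adjusted for sex (adjusted p = 0.548). Vdr (chromosome 15, 97854425 to 97910630, minus strand) had 25.4, 33.8, 23.3 and 19.7 CPM in PE+/- males, against 26.6, 25.6, 20.1 and 22.3 in PE-/- males. It had 14.3, 16, 7.41 and 11.4 CPM in PE+/- females, against 39.6, 24 and 23.6 in PE-/- females, again without overlap in females. Its change was 1.23 ± 0.31 in females (adjusted p = 0.113) and -0.11 ± 0.19 in males (adjusted p = 0.987), with an interaction of 1.36 ± 0.36 (adjusted p = 0.186). The low group in both genes was the PE+/- females, at 67.1% (Rxrg) and 48.0% (Vdr) of the PE+/- males. Rxra, chosen for mention after its values were seen, had 27.7, 21.6, 17.1 and 21.5 CPM in PE+/- females, against 31.0, 35.4 and 28.4 in PE-/- females, a difference of 0.51 ± 0.20 (adjusted p = 0.252). Its PE+/- and PE-/- means in males were 25.7 ± 3.26 and 27.7 ± 1.66 CPM (SD, n = 4 each). Markers of several hormone cells also differed in the same female libraries. The 4 lactotrope markers summed to 22395 to 35881 CPM in PE+/- females, beside 5003 to 6207 in PE-/- females. Of the 3 tested, 2 were lower and 1 was higher, with a median of -0.32 and a highest of 0.21. Only Prl (prolactin) passed (-2.58 ± 0.21, adjusted p = 0.00698 by edgeR), so the sum does not speak for each marker. In males the lactotrope sums overlapped, at 12912 to 31668 and 5279 to 41840 CPM. The 4 somatotrope markers were all higher in PE-/- females. Of them, 2 had an unadjusted p under 0.05, against 16.1% of all genes, and 0 passed the adjusted test. Their sums were 60256 to 105488 CPM in PE+/- and 87100 to 175725 in PE-/- females, which overlapped. The corticotrope, melanotrope and thyrotrope lists, of 4 markers each, were also all higher in PE-/- females. Of all genes tested, 50.2% were higher, and 0 markers of these lists passed the adjusted test. The part of any of these lists in the values of Rorb, Rxrg, Vdr and Rxra was not tested.

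Nr4a2 and Nr4a3 are orphan receptors of the immediate early class, made within minutes of a stimulus without a ligand being needed. Nr4a2 (chromosome 2, 57106830 to 57124003, minus strand) had 61.6, 50.3, 143 and 46.2 CPM in PE+/- males, against 218, 241, 121 and 63.3 in PE-/- males. It had 42.4, 13, 44.9 and 167 CPM in PE+/- females, beside 113, 165 and 336 in PE-/- females. The groups overlapped in both sexes, since replicate 3 of the PE+/- males and replicate 4 of the PE+/- females lay among the PE-/- libraries. The adjusted change was 1.34 ± 0.48 (95% interval 0.32 to 2.36, adjusted p = 0.230), and it was 1.09 in males and 1.61 in females. Nr4a3 (chromosome 4, 48045153 to 48086447, plus strand) had 3.17, 3.15, 7.01 and 2.0 CPM in PE+/- males, against 13, 11.9, 2.86 and 2.73 in PE-/- males. It had 8.52, 1.51, 1.80 and 5.86 CPM in PE+/- females, against 10.1, 17.9 and 17.1 in PE-/- females, where the groups did not overlap. Its adjusted change was 1.36 ± 0.46 (0.37 to 2.35, adjusted p = 0.205). The third of the family, Nr4a1, changed by 1.6 ± 0.62 in the same fit (adjusted p = 0.278). Immediate early transcripts varied beside these genes. The sum of 7 such genes, without Nr4a1, was 1141 to 3726 CPM in PE+/- males, 1503 to 4467 in PE-/- males, 367 to 1450 in PE+/- females and 1396 to 2228 in PE-/- females. On the full list of 8, with Nr4a1, 7 were higher in PE-/- males and 8 in PE-/- females, and 0 passed the adjusted test in either sex. Over all genes tested, 50.4% were higher in males and 50.2% in females. With an unadjusted p under 0.05 there was 1 gene of the list in each sex (12.5%), against 6.14% of all genes in males and 16.1% in females. The part of this variation in the values of Nr4a2 and Nr4a3 was not tested.

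Nr1h4 and Nr2c1 had the smallest p in males, and both were low, with 0 to 99 and 17 to 89 counts in a library. Nr1h4 (chromosome 10, 89454234 to 89533585, minus strand), the bile acid receptor, had 2.11, 1.35, 0.549 and 0.323 CPM in PE+/- males, against 4.45, 3.79, 2.67 and 3.02 in PE-/- males, without overlap. Replicates 3 and 4 of the PE+/- males had 9 and 5 counts, under the floor, and so count as not detected. The change was 1.68 ± 0.53 (adjusted p = 0.577). In females it had 2.03, 3.02, 0 and 5.61 CPM in PE+/- and 4.14, 1.64 and 4.29 in PE-/-, a difference of 0.32 (adjusted p = 0.931). Nr2c1 (chromosome 10, 94148023 to 94197211, plus strand), an orphan receptor of the testicular receptor family, had 1.62, 1.02, 1.22 and 1.10 CPM in PE+/- males, against 1.72, 2.68, 2.91 and 1.54 in PE-/- males. The change was 0.84 ± 0.33 (adjusted p = 0.727), and replicate 1 of PE+/- lay above replicate 4 of PE-/-. In females Nr2c1 had a difference of the opposite sign, -0.55 (adjusted p = 0.709), with an interaction of -1.38 ± 0.63 (adjusted p = 0.488).

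Ppara, Thrb and Nr6a1 were added after their values were seen. Ppara, the fatty acid receptor that drives their oxidation, had 0.391, 0.796, 1.31 and 1.22 CPM in PE+/- females, against 3.03, 3.00 and 2.76 in PE-/- females, a difference of 1.64 ± 0.42 (adjusted p = 0.117). Replicate 1 of the PE+/- females had 5 counts of Ppara, under the floor, and so counts as not detected. The groups of Ppara in males overlapped (-0.20, adjusted p = 0.988), and replicate 4 of the PE-/- males, with 11 counts, was also under the floor. The 8 genes of the PPAR target list had 0 of 7 tested past the threshold in each sex. An unadjusted p under 0.05 was seen for 1 in males and for 0 in females, against 6.14% and 16.1% of all genes. Thrb had 260.0, 379.9, 367 and 250.3 CPM in PE+/- males, against 39.4, 279, 28.5 and 418 in PE-/- males. It had 606, 222, 868 and 485 CPM in PE+/- females, against 488, 30.8 and 9.50 in PE-/- females. Among the PE-/- libraries, 4 of 7 lay at 217 to 995 counts and the other 3 at 7294 to 7903, while the 8 PE+/- libraries had 3690 to 15948. The adjusted change was -1.13 ± 0.75 (95% interval -2.73 to 0.46, adjusted p = 0.610). Transcripts that overlap Thrb on the other strand had 0 to 11 counts. Nr6a1, an orphan receptor whose gene lies 8827 bp from Nr5a1 on chromosome 2, was at -0.41 ± 0.18 in the adjusted fit (adjusted p = 0.370), with means of 6.0 and 4.29 CPM in PE+/- and PE-/- males and 6.38 and 5.09 CPM in the females.

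**Figure D4:**
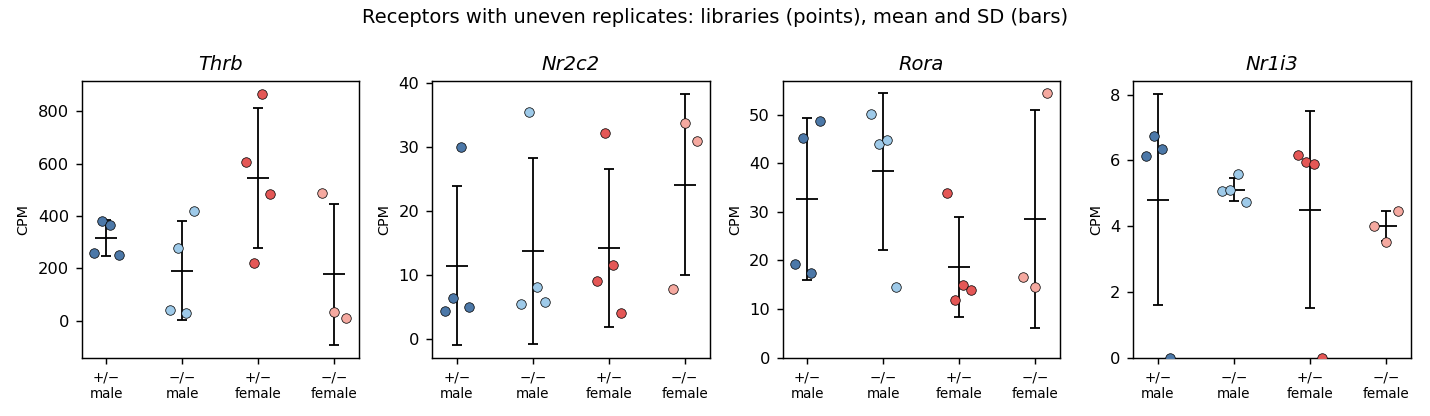
CPM of Thrb, Nr2c2, Rora and Nr1i3 in every library (points) with the group mean and SD (bars). The points of Thrb in PE-/- glands, of Nr2c2 and Rora in all groups and of Nr1i3 in PE+/- glands stand apart, so the SD bars run wide and some cross 0.

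Nr1d1 and Rara, whose windows held the pattern CAAGGNCA, had no group that stood apart. Nr1d1 had 189, 167, 72.1 and 197 CPM in PE+/- males, against 114, 71.5, 140.2 and 193 in PE-/- males, and 183, 121, 73.8 and 78 CPM in PE+/- females beside 238, 97.1 and 93.0 in PE-/- females. The libraries of each group were spread as widely as the groups together, and the adjusted change was 0.01 ± 0.31 (adjusted p = 0.997). Nr1d1 and Thra overlap on opposite strands by 1075 bp, so reads from that stretch may be shared. Rara was at -0.14 ± 0.12 (adjusted p = 0.724), with group means from 13 to 16.1 CPM. Of 15 clock genes around the loop that Nr1d1 and Nr1d2 close, 14 were higher in PE-/- females and 6 in PE-/- males, and 0 passed the adjusted test in either sex. Over all genes tested, 50.2% were higher in females and 50.4% in males. There was 1 clock gene with an unadjusted p under 0.05 in males (6.67%), where 6.14% of all genes had one, and in females 33.3% did, against 16.1%. The 5 with an unadjusted p under 0.05 in females included Nfil3 (0.97 ± 0.19, adjusted p = 0.0669), Per3 (0.83 ± 0.19, adjusted p = 0.0930) and Hlf (1.05 ± 0.28, adjusted p = 0.132). The summed clock genes were 422 to 611 CPM in PE+/- females and 581 to 867 in the other 3 groups. The hour at which glands were taken is not given in the sources used here.

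The other receptors are given by family, with the change in the fit adjusted for sex, in which none of them passed the test. The retinoic acid receptors Rarb and Rarg were at 0.35 and 0.05 on the log2 scale, and the retinoid X receptor Rxrb was at -0.10. The oxysterol receptors Nr1h2 and Nr1h3, which govern cholesterol export, were at -0.04 and 0.08. The COUP-TF receptors Nr2f1, Nr2f2 and Nr2f6 were at 0.03, 0.05 and 0.15, and the oestrogen-related receptors Esrra, Esrrb and Esrrg, which act without oestrogen, at 0.02, -0.41 and -0.003. Thra, the second thyroid hormone receptor, was at 0.07, Nr1d2 at 0.19 and Rora at 0.41. The lipid sensors Ppard and Pparg were at -0.12 and 0.74, Nr1i3, a sensor of foreign compounds, at -0.03 and Nr2c2 at 0.50. The value of Ppard lies between opposite signs, -0.91 in males and 0.76 in females. A difference between the sexes was not shown for it (interaction 1.67 ± 0.82, adjusted p = 0.527 by edgeR). Within groups, the largest coefficient of variation of a receptor was 13.7% for Rorb, 19.9% for Rxra and 22.2% for Rxrg, against 102% for Nr4a2, 109% for Nr2c2 and 154% for Thrb, so the depth of evidence differed widely between receptors.

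Genes that serve these receptors were described by counts, and none of the lists had a member past the adjusted test in males or in females. Over all genes tested, 6.14% in males, 16.1% in females and 12.7% in the fit adjusted for sex had an unadjusted p under 0.05. Of the 12 coactivators, 2 in each sex (16.7%) had an unadjusted p under 0.05, and the list's median was 0.03 in males and 0.19 in females on the log2 scale. Of the 8 corepressors 0 did in either sex, with medians of 0.003 and 0.21. Of 12 genes of retinoid handling and targets, 9 were tested, and 2 in each sex had an unadjusted p under 0.05. Aldh1a2, which makes retinoic acid, was at 0.77 ± 0.14 in females (adjusted p = 0.0634). Of 10 genes of thyroid hormone handling, 9 were tested and the unadjusted p was under 0.05 for 1 in males and for 2 in females. Of 6 LXR targets, the unadjusted p was under 0.05 for 0 in males and for 1 in females. Of 7 steroidogenic genes that NR5A1 and NR5A2 can both drive elsewhere, 3 could be tested in each sex and 0 had an unadjusted p under 0.05. The fit adjusted for sex tested 4 of them, and 0 passed the adjusted test. The only 1 with an unadjusted p under 0.05 was Cyp17a1, an enzyme of androgen synthesis. Cyp17a1 was at 0 in all PE-/- libraries and at 0 to 0.980 CPM in PE+/- libraries. It passed the low-count filter only through the PE+/- libraries, so its p-value is not read as support for a change.

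Between the sexes, 0 of 32 receptors passed in PE+/- glands, where 0.67% of 17163 genes did, and 4 had an unadjusted p under 0.05, against 13.5%. In PE-/- glands 0 of 32 passed, against 0.0494% of 18217 genes, and 1 had an unadjusted p under 0.05, against 3.37%. DESeq2 passed 2 of 32 receptors in PE+/-, Rorb and Vdr, against 5.24% of all genes, and 0 in PE-/-, against 0.225%. Rxrg, Rorb and Vdr were those whose PE+/- sexes did not overlap, all with lower values in females, which is 3 of 32 receptors against 9.75% of all genes. In PE-/- glands the sexes did not overlap for Ppara, higher in females, and Nr1i3, lower in females, as for 5.24% of all genes. In the interaction of genotype and sex 0 of 32 passed by edgeR and 1 by DESeq2 (Vdr), against 0.161% of 19286 genes by edgeR and 2.03% by DESeq2. There were 5 with an unadjusted p under 0.05, against 10.1%: Vdr, Rxrg, Rorb and Ppara, with a larger fitted change in females, and Nr2c1, whose fitted change was positive in males and negative in females.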

How the data were processed

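RNA of whole pituitaries was made into libraries with the NEBNext Single Cell/Low Input kit, whose paired reads the authors state they trimmed (cutadapt), mapped to mm10 (STAR) and counted (featureCounts). What they deposited are estimated counts, whole numbers per gene and not normalized. The row names resemble those of a transcript assembly, which the methods do not mention. The values 5, 9 and 13 were more frequent than their neighbours (by 1.41, 1.16 and 1.07 times), which was read as a step of about 4 counts per fragment. The value 11, off that step, was also more frequent (1.09 times), so the reading rests mainly on 5 and 9. The use of strand is not given in the sources used here. All 15 columns were matched to samples by name, with 0 unmatched.

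The test was the quasi-likelihood F test of edgeR 4.0.16 in R 4.3.3, two-sided, with p-values adjusted by Benjamini-Hochberg and called under 0.05. It was run on the libraries compared after filterByExpr (at least 10 counts, total of 15) and TMM scaling. The SE is the log2 fold change divided by the root of F, and intervals are 95%. Scripts were tested on simulated data. CPM used TMM-scaled library sizes, and exon lengths and coordinates came from GENCODE M21 (mm10). A gene with 12 counts or fewer (3 fragments) was taken as undetected, a limit that covers counting error alone because reads had no molecular identifiers. Every replicate pair differed by more than counting noise (chi-square per degree of freedom 71.4 to 231).

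Values are given in full for Nr5a2, for members past the threshold and for the 3 members of smallest p in each genotype comparison with a mean of at least 20 counts. The members and lists were chosen with earlier results of these data known. Alternatives were DESeq2 1.42.0, scaling by its size factors or by library totals, no filter, the likelihood ratio test, sums per locus, counts divided by 4, all 15 libraries in 1 fit, a replicate block, and each library left out in turn.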

Additional observations from a re-analysis of the deposited data

Results flagged for a closer look

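In 96 groups of 4 libraries, the library farthest from the rest was set against the group's whole range (Dixon's 95% critical value). There were 11 groups with such a library, and chance gives about 1 in 20. Nr1i3 was 0 CPM in replicate 4 of the PE+/- males (the others 6.13 to 6.73) and 0 in replicate 4 of the PE+/- females (5.88 to 6.17). Nr2c2 was 30.01 CPM in PE+/- male 3 (4.37 to 6.45) and 35.4 in PE-/- male 2 (5.51 to 8.11). Rora was 14.5 CPM in PE-/- male 4 (44.0 to 50.0) and 33.8 in PE+/- female 1 (11.9 to 14.9). Ppard was 9.11 CPM in PE-/- male 4 (3.06 to 3.89) and 10.4 in PE+/- female 3 (2.89 to 3.48). In PE+/- males, Nr2f6 was 10.01 CPM in replicate 1 (0.776 to 2.32), Nr6a1 was 8.25 in replicate 1 (5.12 to 5.47) and Nr4a2 was 143 in replicate 3 (46.2 to 61.6).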

How the results depend on the processing

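For 8 named receptors in 6 comparisons, 834 of 887 recomputed log2 fold changes kept their direction and their side of the threshold. Most could do so because they had not passed in the first place. Only Rorb in the fit adjusted for sex had passed, and it lost its call in 15 recomputed fits. Of the values of all 8, 13 gained a call and 25 changed sign. In females, 4 receptors passed under DESeq2 (with 7.91% of all genes), 2 under the likelihood ratio test (3.93%), 1 with counts divided by 4 (1.94%), 2 with all 15 libraries in 1 fit (3.7%), and 0 to 1 when a library was left out, against 0 (1.05%). In the fit adjusted for sex, 0 passed with no low-count filter (0.484% of all genes), 0 under the likelihood ratio test (2.17%), and 0 to 1 when a library was left out. Between PE+/- sexes, 2 passed under DESeq2 (5.24% of all genes) and 2 with all 15 libraries (2.18%), against 0 (0.67%); in the interaction, 1 passed under DESeq2 (2.03%), against 0 (0.161%). The cause was not tested. With the replicate block, 0 receptors passed in the fit adjusted for sex (Rorb 0.47, adjusted p = 0.104), and Nr4a2 between PE-/- sexes turned to -0.036. The numbers did not pair the samples: correlations of same-numbered libraries ran from -0.081 to 0.132 over 21 pairs, with 2 above 0.1.

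Leaving out 1 library turned the sign of these unpassed log2 fold changes. In males the range was -0.041 to 0.38 for Nr5a2, -0.23 to 0.0065 for Rxrg and -0.22 to 0.050 for Vdr. In females it was -0.042 to 0.47 for Nr5a2 and -0.10 to 0.96 for Nr1h4. Between PE+/- sexes it was -1.18 to 0.33 for Nr4a2 and -0.35 to 0.66 for Nr4a3. Between PE-/- sexes it was -0.13 to 0.022 for Rorb, -0.28 to 0.28 for Nr1h4, -0.74 to 0.22 for Nr2c1 and -0.21 to 0.64 for Nr4a2. In the interaction it was -0.18 to 0.36 for Nr5a2 and -0.024 to 1.51 for Nr4a2. Depth limits Nr5a2, Nr1h4, Nr2c1 and also Ppara, at no more than 99 counts in a library.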
